A study of Mus musculus with 11 samples.

Results

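The circadian clock of the mouse liver was examined through 10 genes, taken as every entry of the deposited count table whose gene name was Arntl, Clock, Npas2, Per1, Per2, Per3, Cry1, Nr1d1, Nr1d2 or Dbp. All 10 were among the 55414 genes of the table, and all 10 passed the filter on low counts that left 17038 genes for testing. RNA had been sequenced from whole livers of 11 male mice. Every mouse carried Clec4f-DTR, a transgene that puts a receptor for diphtheria toxin (DT) under the control of the Clec4f promoter, which is active in Kupffer cells, the resident macrophages of the liver. The mice were 8 weeks old when feeding began and were fed for 16 weeks. DT livers (n = 4) came from mice on western diet with alcohol (WDA) that received serial DT. Saline livers (n = 4) came from mice on the same diet that received serial saline. Chow livers (n = 3) came from mice on normal chow, for which the labels name no injections. The labels give no hour of harvest and do not say whether the livers of a group were collected together. An earlier or later point of the daily cycle and a changed level therefore cannot be told apart for any gene below. Nothing in the labels ties the replicates to separate cages or days, so p-values measure only the spread between these livers.

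The clock is a feedback loop of transcription. Arntl (BMAL1) pairs with Clock or its relative Npas2 and switches on genes that carry an E-box. Among those targets are the Per and Cry genes, whose proteins block the activators, and Nr1d1 and Nr1d2 (REV-ERB alpha and beta), which repress Arntl, Npas2 and Cry1 through RORE sites. Dbp, another E-box target, is a transcription factor that acts through D-box sites on Per genes and on metabolic genes of the liver. In mouse liver the transcripts of Arntl and Npas2 peak at about the opposite phase of the day from those of Dbp and Nr1d1, with the Per genes later than Dbp and Cry1 between the Per genes and Arntl.

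The sequences through which these arms meet are shown for the 4 members with a match just before or after a gene start, since the results turn on activators, repressors and Dbp moving in different directions. Promoters came from RefSeq on GRCm38.p6, an earlier build than the GRCm39 that the submitters' processing notes name, and 9 of the 10 members matched. Per2 had none. Windows ran from 250 bases before a gene start to 50 after it, and both strands were searched. The E-box CACGTG lay in 7.15% of 32851 windows of this length, the D-box TTATGNAA in 3.38%, and the core of the RORE in 1.60%. Capitals mark the matches. The stretches of Per1 (chr11:69098699-69098948, plus strand), Per3 (chr4:151044666-151044915, minus strand) and Cry1 (chr10:85185055-85185304, minus strand) are the 250 bases before the start. That of Arntl (chr7:113207528-113207557, plus strand) is a site of 30 bases.
Per1: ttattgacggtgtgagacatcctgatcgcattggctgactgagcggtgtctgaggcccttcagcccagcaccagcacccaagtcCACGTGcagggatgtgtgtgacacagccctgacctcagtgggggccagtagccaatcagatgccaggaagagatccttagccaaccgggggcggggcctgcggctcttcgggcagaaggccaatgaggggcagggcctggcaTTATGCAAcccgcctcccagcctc
Per3: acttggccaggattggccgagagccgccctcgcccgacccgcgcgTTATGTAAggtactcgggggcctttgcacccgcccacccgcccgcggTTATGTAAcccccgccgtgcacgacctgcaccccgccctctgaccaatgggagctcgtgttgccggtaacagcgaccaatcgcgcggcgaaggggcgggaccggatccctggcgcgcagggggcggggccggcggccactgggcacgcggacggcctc
Cry1: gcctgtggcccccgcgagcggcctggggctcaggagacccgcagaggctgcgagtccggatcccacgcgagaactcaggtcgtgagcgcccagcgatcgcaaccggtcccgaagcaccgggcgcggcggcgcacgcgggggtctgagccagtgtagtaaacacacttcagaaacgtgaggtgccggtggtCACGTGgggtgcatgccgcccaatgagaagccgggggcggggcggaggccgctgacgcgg
Arntl: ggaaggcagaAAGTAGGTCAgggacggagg
Per1 held both an E-box, beginning at position -166 from the start, and a D-box at -24. Per3 held a pair of D-boxes, at -205 and -158. Cry1 held an E-box at -60, and the RORE match of Arntl began at position 28 of its second listed start. A match describes letters in the window and shows no binding.

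Values below are CPM (counts scaled to a common library size, with TMM normalisation), given for livers 1 to 4 (chow, 1 to 3) in order. The quasi-likelihood test of edgeR gave log2 fold changes with their SE, and adjusted p-values are by Benjamini-Hochberg over all 17038 genes. The spread was estimated over the 3 groups together, so a DT liver also bears on the test of saline against chow livers. A gene is called, and is said to have risen or fallen, where the adjusted p was below 0.05.

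Marker levels of several cell types differed between DT and saline livers, and the marker sums are given here for every result below. The bile duct and leukocyte sums of DT liver 2, 49.4 and 19.3 CPM, lay within the ranges of the saline livers. Hepatocyte markers (9 of 10 in the table), which define the labelled tissue, summed to 68872 to 97631 CPM in DT livers, 95329 to 108695 CPM in saline livers and 111204 to 133578 CPM in chow livers. Kupffer cell markers (9) summed to 328 to 463 CPM in DT livers, 573 to 698 CPM in saline livers and 545 to 713 CPM in chow livers. Clec4f itself was at 6.18 to 15.2 CPM in DT livers, 43.1 to 49.1 CPM in saline livers and 37.1 to 50.3 CPM in chow livers. In DT against saline livers 7 of 9 Kupffer cell markers, 3 of 10 markers of sinusoidal endothelium and 1 of 9 hepatocyte markers fell. In the same comparison 10 of 10 bile duct, 7 of 10 stellate cell and fibroblast, 2 of 10 leukocyte, 1 of 10 endothelial and 1 of 9 hepatocyte markers rose. Bile duct markers summed to 49.4 to 452 CPM in DT livers, 37.1 to 63.3 CPM in saline livers and 37.1 to 58.3 CPM in chow livers, with the 49.4 in DT liver 2. Stellate cell and fibroblast markers summed to 294 to 767 CPM in DT livers, 202 to 391 CPM in saline livers and 150 to 198 CPM in chow livers. Leukocyte markers summed to 19.3 to 72.9 CPM in DT livers, 18.2 to 32.5 CPM in saline livers and 13.8 to 15 CPM in chow livers, and endothelial markers to 407 to 457, 490 to 532 and 493 to 549 CPM in DT, saline and chow livers. Cd163, a Kupffer cell marker, was at 0 in DT liver 1. Along the leading axis of a principal component analysis over the 500 genes that varied most (75.9% of their variance) DT livers 1, 3 and 4 stood apart, and DT liver 2 lay with the saline livers. The part of these shifts in the clock values was not tested. In whole tissue fewer cells of a type and less RNA per cell cannot be told apart.

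For part of the 10 genes the saline livers sat at 1 end of the range. Arntl and Cry1 were lower in all 4 of them than in any other liver, and Dbp, Nr1d2 and Per3 were higher in all 4 than in any other liver. This made 5 of the 10 genes on which the saline livers stood apart from the other 7, where 7.47% of all tested genes did so. On Clock, Npas2, Per1, Per2 and Nr1d1 the saline livers overlapped another group. The DT livers stood apart on 2 of the 10, with Npas2 above and Clock below every other liver, against a background of 9.19%. The chow livers stood apart on 0 of the 10, against 11.6%.

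**Figure D1:**
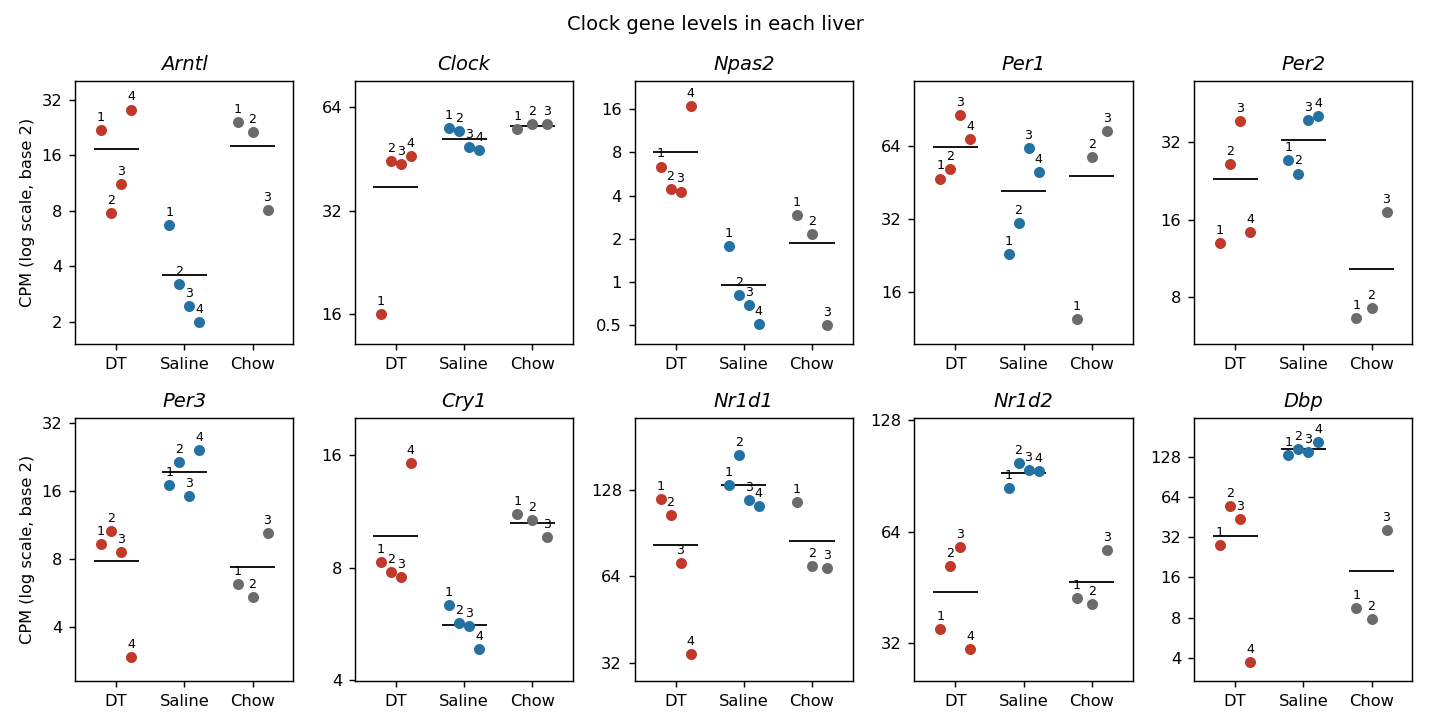
Level of each of the 10 clock genes in CPM (vertical axes, logarithmic to base 2) in DT, saline and chow livers, with a point per liver carrying its replicate number and a line at the group mean. Saline livers lie lowest for Arntl (1.98 to 6.66 CPM) and highest for Dbp (132 to 167 CPM), and DT liver 1 lies far below the others for Clock (16.0 CPM).

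Of the activators, Arntl had 21.8, 7.74, 11.2 and 28.3 CPM in DT livers, against 6.66, 3.21, 2.43 and 1.98 CPM in saline livers and 24.4, 21.4 and 8.05 CPM in chow livers. Every saline liver was below every DT and every chow liver, while DT and chow livers overlapped over most of their range. Arntl was 4.84-fold higher in DT than in saline livers (log2 fold change 2.27 ± 0.51 SE, adjusted p = 0.0121), and this call held in all 11 refits without 1 liver. It was 5.02-fold lower in saline than in chow livers (-2.33 ± 0.53, adjusted p = 0.0269); leaving out saline liver 2, 3 or 4 or chow liver 1 or 2 ended this call (adjusted p = 0.0849, 0.0817, 0.0721, 0.118 and 0.0974), as did testing with no filter or by limma-voom (adjusted p = 0.113 and 0.0737). Between DT and chow livers the log2 fold change was -0.05, with a 95% interval from -1.18 to 1.08 (adjusted p = 0.952).

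Npas2, which can take the place of Clock beside Arntl, had 6.36, 4.45, 4.26 and 16.8 CPM in DT livers, against 1.79, 0.814, 0.695 and 0.511 CPM in saline livers and 2.91, 2.17 and 0.508 CPM in chow livers. All 4 DT livers were above all 7 others, and DT liver 4 was well above the other 3. Chow liver 3 was as low as the lowest saline liver. Npas2 rose in DT against saline livers (log2 fold change 3.06 ± 0.62, 8.35-fold, adjusted p = 0.00919), in all 11 refits without 1 liver. It was also the only 1 of the 10 genes that differed between DT and chow livers by the same test (2.10 ± 0.66, adjusted p = 0.0413). That call ended without DT liver 1 or 4, saline liver 2 or 3, or any 1 chow liver (adjusted p = 0.0505 to 0.121). Without DT liver 4 the log2 fold change was 1.47. With no filter, by limma-voom and with only the compared groups the adjusted p was 0.107, 0.0571 and 0.0808. The call also ended with the replicate number as a block.

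Clock, the main partner of Arntl, had 16.0, 44.7, 43.8 and 46.1 CPM in DT livers, against 55.8, 54.6, 49.3 and 48.1 CPM in saline livers and 55.3, 57.3 and 57.4 CPM in chow livers. No DT liver reached the lowest saline or chow liver, and DT liver 1 was far below the other 10. The log2 fold changes were -0.46 ± 0.26 for DT against saline (adjusted p = 0.206), -0.13 for saline against chow (adjusted p = 0.85) and -0.59 ± 0.27 for DT against chow livers (adjusted p = 0.138). Without DT liver 1 the last was -0.33 and was called (adjusted p = 0.0278), with 20.1% of all tested genes. Clock has the lowest GC content of the 10 genes, 41.5%, and DT liver 1 was low in genes of low GC content in general: of 5 equal bins of genes by GC content, the lowest had a median of -0.42 log2 units from its group mean, and the highest 0.08. After a correction for GC content, DT liver 1 had 27.0 CPM of Clock, against 44.3, 39.8 and 39.2 CPM in DT livers 2 to 4. With that correction Clock was called lower in DT against chow livers (-0.61, adjusted p = 0.0128), as it was without DT livers 1 and 2 together (-0.33, adjusted p = 0.0109). Those settings called 33.6% and 44.8% of all tested genes there, against 23.0% over all 11 livers without correction. The correction moved the median log2 fold change of all tested genes in that comparison to -0.22. The part of GC content in the Clock values was not tested.

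Of the Per and Cry repressors, Per1 was called in no comparison. It had 47.0, 51.5, 86.1 and 68.4 CPM in DT livers, against 22.9, 30.7, 63.0 and 49.9 CPM in saline livers and 12.3, 57.7 and 73.9 CPM in chow livers. All 3 groups overlapped, the chow livers alone covered nearly the whole range, and the adjusted p was 0.363 to 0.868. Per2 had 13.0, 26.2, 38.6 and 14.3 CPM in DT livers, against 27.3, 24.1, 39.0 and 40.3 CPM in saline livers and 6.62, 7.25 and 17.1 CPM in chow livers. The saline livers were all above the chow livers, and the DT livers overlapped both. Per2 rose in saline against chow livers (log2 fold change 1.66 ± 0.43, adjusted p = 0.0473). Only 3 of the 11 refits without 1 liver kept that call: it ended without DT liver 2 or 4, any 1 saline liver, or chow liver 1 or 2 (adjusted p = 0.0505 to 0.193). It also ended with no filter, by limma-voom and after GC correction (adjusted p = 0.151, 0.0559 and 0.0628), and without DT livers 1 and 2 together. For DT against chow livers Per2 had a log2 fold change of 1.16 (adjusted p = 0.0709), which was called without chow liver 3 (1.73, adjusted p = 0.0356).

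Per3, the Per gene whose promoter is printed above with a pair of D-boxes, had 9.30, 10.7, 8.57 and 2.96 CPM in DT livers, against 17.1, 21.6, 15.2 and 24.4 CPM in saline livers and 6.23, 5.46 and 10.4 CPM in chow livers. The 4 saline livers were above all others, and DT liver 4 was the lowest of the 11. Per3 fell 2.49-fold in DT against saline livers (log2 fold change -1.31 ± 0.35, adjusted p = 0.0212). The call ended without DT liver 3 or saline liver 2 or 4 (adjusted p = 0.0582, 0.0588 and 0.0632). Against chow livers the saline livers had a log2 fold change of 1.41 ± 0.38 that missed the threshold (adjusted p = 0.0553) and passed it without DT liver 2 or 4 (adjusted p = 0.0477 and 0.0102). It also passed with total counts (0.0333), by DESeq2 (0.00422), with only the compared groups (0.00875) and without DT livers 1 and 2 (0.0427).

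Cry1, the strongest repressor of the loop and a target of both the E-box and the RORE arms, had 8.28, 7.78, 7.54 and 15.2 CPM in DT livers, against 6.36, 5.69, 5.6 and 4.85 CPM in saline livers and 11.2, 10.7 and 9.67 CPM in chow livers. The groups did not overlap between saline livers and either other group, but the gap between the lowest DT and the highest saline liver was small, and DT liver 4 was well above the other 3 DT livers. Cry1 rose in DT against saline livers (log2 fold change 0.79 ± 0.22, adjusted p = 0.0258) and fell in saline against chow livers (-0.90 ± 0.23, adjusted p = 0.0447). The first call ended without saline liver 2, 3 or 4 (adjusted p = 0.0649, 0.0519 and 0.0756), with only the compared groups (0.0573) and after GC correction (0.0576). The other ended without any 1 saline or any 1 chow liver (adjusted p = 0.0749 to 0.162), with total counts (0.141) and by limma-voom (0.0834). Both calls also ended with the replicate number as a block.

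The REV-ERB genes differed in how sharply they separated the groups. Nr1d2 had 35.0, 51.6, 58.1 and 30.8 CPM in DT livers, against 83.9, 98.1, 93.7 and 93.2 CPM in saline livers and 42.4, 40.7 and 57.2 CPM in chow livers. The saline livers lay close together and far above the rest, and DT and chow livers overlapped. Nr1d2 fell in DT against saline livers (log2 fold change -1.07 ± 0.19, adjusted p = 0.00699), the smallest adjusted p among the 10 genes there, and the call held in all 11 refits without 1 liver. It rose in saline against chow livers (0.98 ± 0.21, adjusted p = 0.0214), ending without saline liver 2 or chow liver 1 or 2 (adjusted p = 0.0637, 0.112 and 0.105).

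Nr1d1 had 119, 105, 71.0 and 34.4 CPM in DT livers, against 133, 170, 118 and 112 CPM in saline livers and 117, 69.6 and 68.5 CPM in chow livers. The groups overlapped through DT liver 1 and chow liver 1, and no comparison was called. The log2 fold changes were -0.69 ± 0.33 for DT against saline (adjusted p = 0.143) and 0.65 ± 0.36 for saline against chow livers (adjusted p = 0.331). Without DT livers 1 and 2 together, a choice made after the data were seen, the first was -1.34 and was called (adjusted p = 0.0187), as it was after GC correction (-1.13, adjusted p = 0.0349). Those settings called 45.2% and 27.4% of all tested genes, against 21.9% over all 11 livers without correction. With the replicate number as a block Nr1d1 was also called lower, where 16.7% of tested genes were called. Nr1d1 shares 263 exon bases with Thra on the opposite strand. Thra, the gene of a thyroid hormone receptor, had 26.9, 20.1, 26.9 and 29.6 CPM in DT livers, 22, 20.4, 17.7 and 22.3 CPM in saline livers and 21.4, 22.8 and 20.9 CPM in chow livers.

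Dbp, the output factor, varied most of the 10 genes, over 5.46 log2 units. It had 28.2, 54.6, 43.9 and 3.74 CPM in DT livers, against 132, 146, 139 and 167 CPM in saline livers and 9.37, 7.76 and 36.5 CPM in chow livers. The 4 saline livers were tightly grouped far above the other 7, and DT liver 4 was the lowest of all. Dbp fell 4.47-fold in DT against saline livers (log2 fold change -2.16 ± 0.66, adjusted p = 0.0386) and rose 8.15-fold in saline against chow livers (3.03 ± 0.77, adjusted p = 0.0433). With 1 liver left out, the first call held in 5 of 11 refits, ending without DT liver 1 or 3 or any 1 saline liver (adjusted p = 0.0587 to 0.103), and without a filter (0.128). The other held in 3, ending without DT liver 1 or 3, any 1 saline liver, or chow liver 1 or 2 (adjusted p = 0.0619 to 0.177), and likewise without a filter (0.163), by limma-voom (0.0557) and after GC correction (0.0755). Both calls ended without DT livers 1 and 2 together, and that of saline against chow livers also with the replicate number as a block.

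Dbp shares 539 exon bases with Sphk2, a sphingosine kinase gene on the opposite strand, and the strand setting of the counting is not given in the sources used here, so reads in the shared part cannot be assigned with certainty. Sphk2 had 66.0, 76.3, 48.3 and 48.8 CPM in DT livers, 55.6, 49.6, 40.7 and 57.1 CPM in saline livers and 126, 115 and 97.5 CPM in chow livers. It fell in saline against chow livers (log2 fold change -1.15, adjusted p = 0.00521), where Dbp rose, and was not called between DT and saline livers (0.24, adjusted p = 0.325). In DT against chow livers Sphk2 fell as well (-0.92, adjusted p = 0.007), where Dbp was not called. The part of shared reads in the values of Dbp was not tested.

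**Figure D2:**
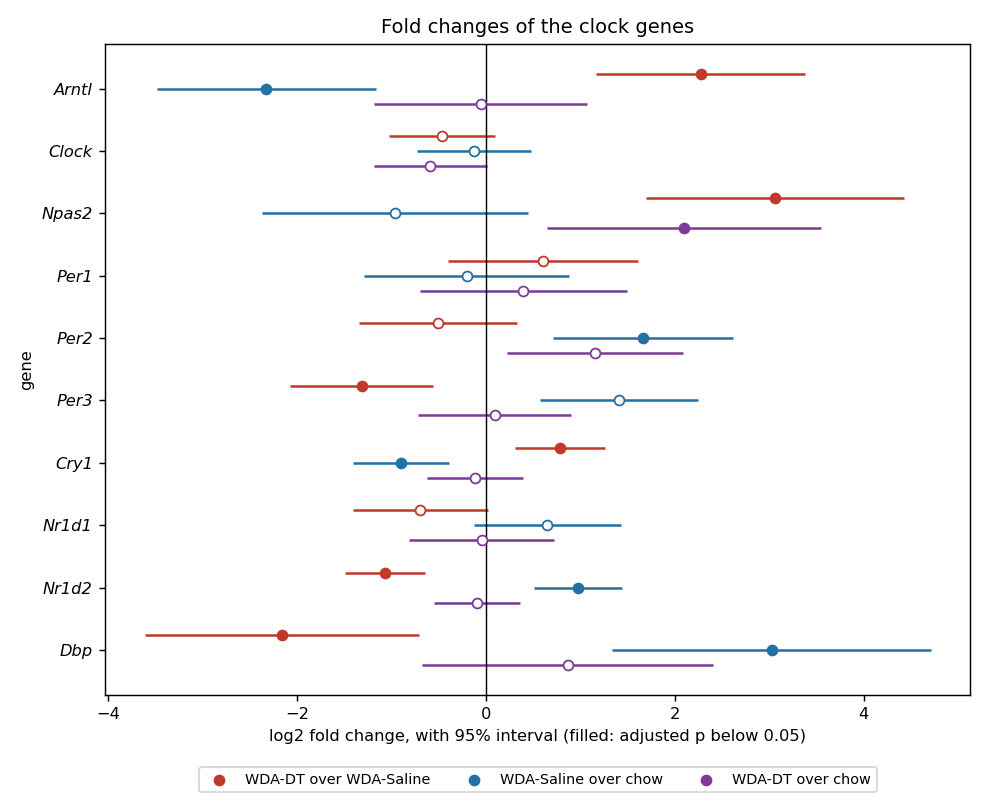
Log2 fold change (horizontal axis) of each clock gene with its 95% interval for DT over saline, saline over chow and DT over chow livers, filled where the adjusted p was below 0.05. Arntl (2.27 and -2.33) and Dbp (-2.16 and 3.03) have opposite signs in the first 2 comparisons, which share the saline livers, and for DT over chow only the point of Npas2 (2.10) is filled.

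Counted over the 10 genes, DT against saline livers gave 3 that rose (Arntl, Npas2 and Cry1), 3 that fell (Per3, Nr1d2 and Dbp) and 4 not called, where 21.9% of all tested genes were called, 14.3% higher and 7.62% lower. The ranges of the groups did not overlap for 7 of the 10, against 19.3% of all tested genes. Saline against chow livers gave 3 that rose (Per2, Nr1d2 and Dbp), 2 that fell (Arntl and Cry1) and 5 not called, where 5.58% of tested genes were called, 2.45% higher and 3.13% lower. There 6 of the 10 did not overlap, against 30.4%. DT against chow livers gave 1 that rose (Npas2), 0 that fell and 9 not called, where 23.0% of tested genes were called, 14.8% higher and 8.16% lower, and 2 of the 10 did not overlap, against 29.2%. In that comparison 2 of the 10 had an unadjusted p below 0.05, and DESeq2 called 2, Npas2 and Per2, with 28.4% of all tested genes.

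The median log2 fold change of the 10 was -0.49 for DT against saline, 0.26 for saline against chow and 0.03 for DT against chow livers. Over all tested genes it was 0.02, 0.00 and -0.02 for these comparisons. The members move in both directions, so these medians describe no shared shift. The saline livers enter both of the first 2 comparisons, so their opposite signs are not separate observations. Leaving out 1 liver gave 3 to 6 called genes for DT against saline, 0 to 5 for saline against chow and 0 to 1 for DT against chow. Those refits called 10.5% to 40.3%, 1.62% to 11.4% and 10.1% to 40.3% of all tested genes in these comparisons. The 0 for saline against chow arose without saline liver 2 and without chow liver 1 or 2. In those refits 2.53%, 1.62% and 1.75% of all tested genes were called. Without DT livers 1 and 2 together, the calls for DT against saline livers were those of Arntl, Npas2, Per3, Cry1 and Nr1d2, with Nr1d1 added, and Dbp was at an adjusted p of 0.0979. That setting called 45.2% of all tested genes in this comparison.

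The phase relations within each liver were read from log2 ratios of 2 genes, as a description without a test. CPM are not divided by gene length, so only the differences of a ratio between livers carry meaning. The ratio of Dbp to Arntl was 0.37, 2.81, 1.97 and -2.91 in DT livers, against 4.30, 5.49, 5.81 and 6.37 in saline livers and -1.37, -1.46 and 2.18 in chow livers. It averaged 0.56 ± 2.53 in DT, 5.49 ± 0.87 in saline and -0.22 ± 2.07 in chow livers (SD). All saline livers were above all others, DT livers 2 and 3 stood beside chow liver 3, and DT liver 4 was lower than chow livers 1 and 2. Dbp and Arntl ran in nearly opposite order across the 11 livers: DT liver 4 had the most Arntl and the least Dbp, and saline liver 4 the least Arntl and the most Dbp.

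**Figure D3:**
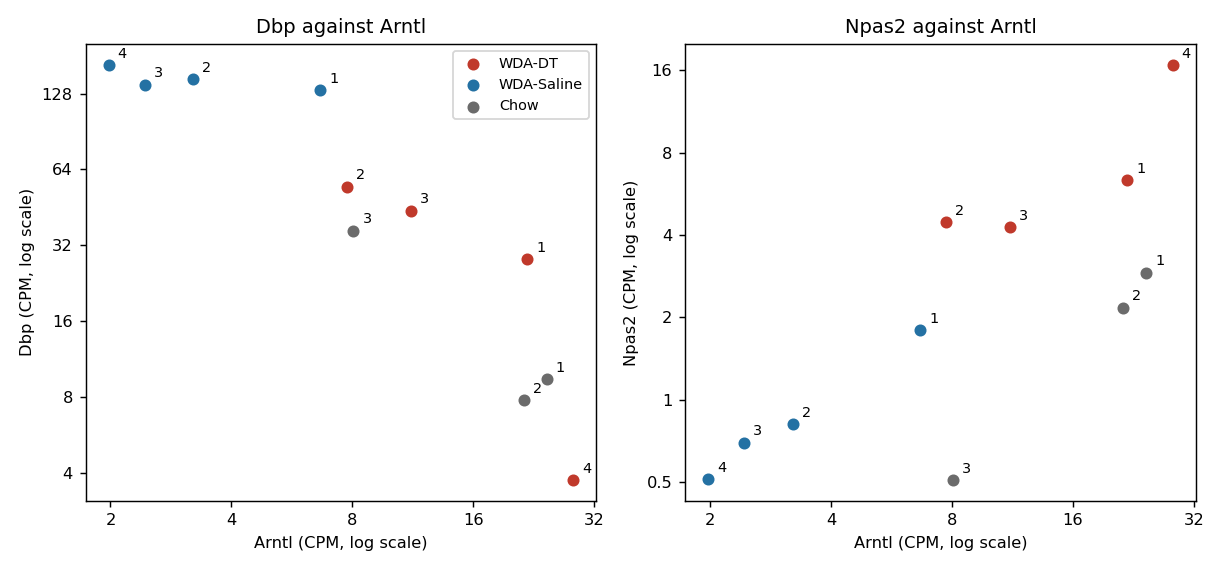
Dbp (left) and Npas2 (right) against Arntl, in CPM on logarithmic axes, with a numbered point per DT, saline or chow liver. Dbp declines with Arntl between saline liver 4 (1.98 CPM of Arntl, 167 CPM of Dbp) and DT liver 4 (28.3 and 3.74 CPM). In Npas2 the chow livers lie below DT livers of like Arntl. No saline liver has as much Arntl as a chow liver.

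Of 15 pairs examined, the saline livers lay all above or all below every other liver in 10. Each of those 10 contains a gene that sets the saline livers apart by itself. The DT livers stood apart in 1 pair, with Npas2 to Clock above every other liver. The chow livers also stood apart in 1, with Arntl to Npas2 above every other liver. No share was computed over gene pairs in general, so these counts have no background. The saline livers did not stand apart in the other 5 (Per1 to Arntl, Per2 to Per3, Nr1d1 to Nr1d2, Arntl to Npas2 and Npas2 to Clock). Per1 to Arntl, for example, was 1.10 to 2.94 in DT livers, 1.77 to 4.67 in saline livers and -0.98 to 3.19 in chow livers. Among the 10, Per3 to Arntl was -1.23, 0.46, -0.38 and -3.25 in DT livers, against 1.35, 2.73, 2.63 and 3.60 in saline livers and -1.96, -1.96 and 0.37 in chow livers. Nr1d2 to Cry1 was 2.07, 2.72, 2.94 and 1.02 in DT livers, against 3.71, 4.10, 4.06 and 4.25 in saline livers and 1.92, 1.92 and 2.56 in chow livers. In both, the saline livers were above all others, and DT and chow livers overlapped. Per1 to Dbp, a late against an early E-box target, was 0.73, -0.09, 0.97 and 4.18 in DT livers, against -2.53, -2.25, -1.14 and -1.74 in saline livers and 0.39, 2.89 and 1.02 in chow livers, so the saline livers were below the rest.

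A different split appeared between the activators. Arntl to Npas2 was 1.77, 0.79, 1.38 and 0.76 in DT livers, against 1.87, 1.93, 1.75 and 1.88 in saline livers and 3.05, 3.28 and 3.89 in chow livers. All 8 diet livers were below all 3 chow livers, and the saline livers lay close together, at 1.75 to 1.93, although Arntl itself varied among them. Livers with like Arntl thus differed in Npas2: DT liver 1 and chow liver 2 had 21.8 and 21.4 CPM of Arntl but 6.36 and 2.17 CPM of Npas2. DT liver 2 and chow liver 3, with 7.74 and 8.05 CPM of Arntl, had 4.45 and 0.508 CPM of Npas2.

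**Figure D4:**
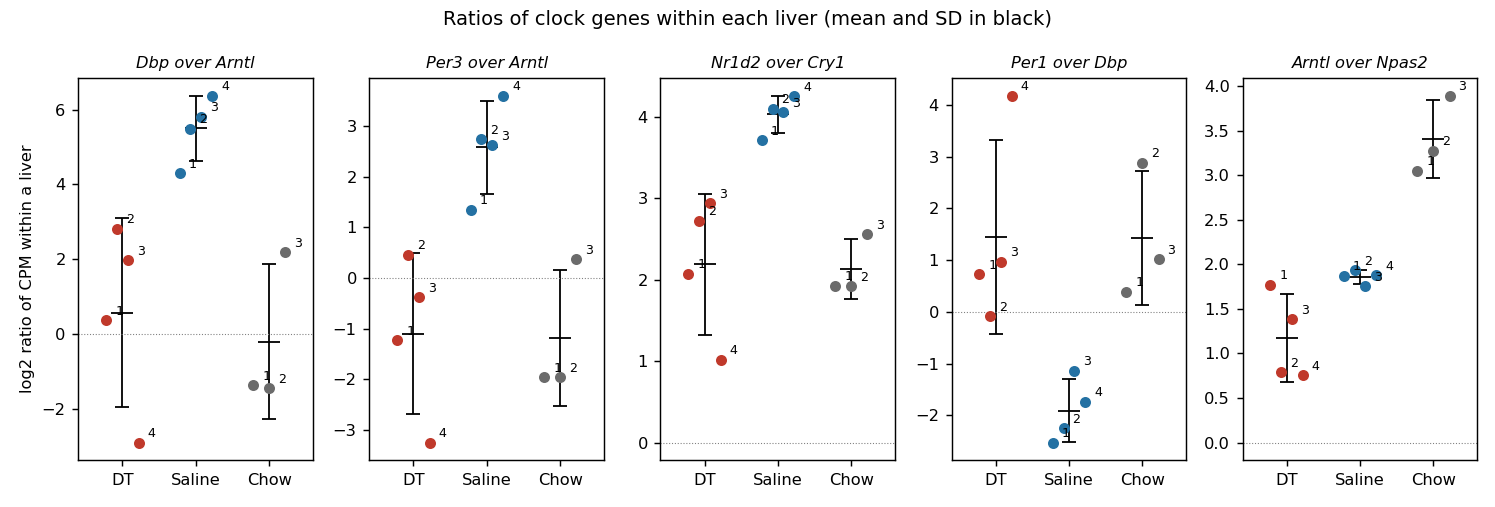
Log2 ratio of the CPM of 2 clock genes within a liver (vertical axes) for 5 pairs in DT, saline and chow livers, with numbered points and the mean and SD in black. Saline livers are highest for Dbp over Arntl (4.30 to 6.37) and lowest for Per1 over Dbp (-2.53 to -1.14), and chow livers are highest for Arntl over Npas2 (3.05 to 3.89).

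Within each group the median range of the clock genes exceeded that of all tested genes, least among saline livers. The median range of the 10 genes was 1.68 log2 units over the DT livers, where all tested genes had 0.85. It was 0.64 over the saline livers, where all tested genes had 0.50, and 1.14 over the chow livers, where all had 0.36. In DT livers the range was widest for Dbp (3.86), with liver 4 lowest and liver 2 highest. In chow livers it was widest for Per1 (2.58), Npas2 (2.44) and Dbp (2.23). Chow liver 3 had the least Arntl, Npas2 and Cry1 and the most Per1, Per2, Per3, Nr1d2 and Dbp of the 3 chow livers. Its Nr1d1 was the lowest as well, at 68.5 CPM against 117 and 69.6 CPM in chow livers 1 and 2. In saline livers it was widest for Npas2 (1.74), Arntl (1.73) and Per1 (1.46), and 0.34 for Dbp. Saline liver 1 had the most Arntl, Npas2 and Cry1 of its group and the least Dbp, Nr1d2 and Per1. It did not have the least Nr1d1, Per2 or Per3, at 133, 27.3 and 17.1 CPM.

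**Figure D5:**
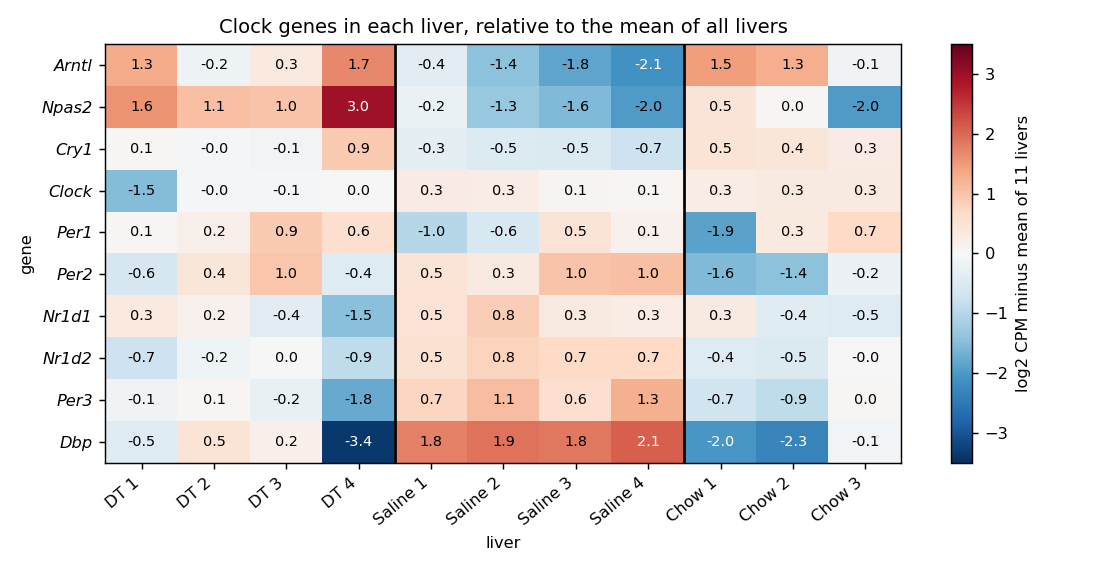
Log2 CPM of the clock genes (vertical axis) in each DT, saline and chow liver (horizontal axis) after subtracting the gene's mean over the 11 livers. Saline livers 1 to 4 are above the mean for Dbp (1.76 to 2.10) and below it for Arntl (-2.13 to -0.40), and DT liver 4 shows the reverse with -3.36 for Dbp and 1.69 for Arntl.

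Among the members, patterns over the 11 livers were compared by the mean absolute difference of log2 CPM after centring each gene on its own mean. Nr1d2 and Per3 were closest (0.35), then Nr1d1 and Nr1d2 (0.41) and Nr1d1 and Per3 (0.43), and Arntl and Npas2 differed by 0.75. Arntl and Dbp were far apart, at 2.57. Of 9756 other genes whose log2 CPM averaged 2 or more, those most like Arntl included Abtb2 (0.33), Pdk4 (0.39), Slc39a4 (0.55) and Neat1 (0.56). Those most like Dbp were Wee1 (0.75), Tpm2 (0.89), Car3 (0.90), Dsg1c (0.93) and Scd1 (0.96). These were picked for their likeness, over livers that share diet and treatment.

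Beyond the members, 16 further clock genes were described by counts. In DT against saline livers 2 rose and 3 fell, with a median log2 fold change of -0.27. In saline against chow livers 1 rose and 1 fell (median 0.01), and in DT against chow livers 1 rose and 0 fell (median -0.20). These are 31.2%, 12.5% and 6.25% of the list, against 21.9%, 5.58% and 23.0% of all tested genes. Bhlhe41 (DEC2), a repressor at E-boxes, had 2.72, 2.58, 3.81 and 2.39 CPM in DT livers, against 11.8, 11.7, 10.3 and 6.13 CPM in saline livers and 1.47, 1.02 and 2.72 CPM in chow livers. The saline livers were above all others. It fell in DT against saline livers (log2 fold change -1.79, adjusted p = 0.00626) and rose in saline against chow livers (2.52, adjusted p = 0.0036), each in all 11 refits without 1 liver.

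Csnk1e, a kinase that marks PER proteins for decay, had 16.6, 8.07, 17.3 and 17.5 CPM in DT livers, against 5.6, 6.57, 6.35 and 4.64 CPM in saline livers and 7.06, 5.94 and 7.78 CPM in chow livers. All DT livers were above all others, with DT liver 2 only just so. It rose in DT against saline (1.36, adjusted p = 0.00624) and against chow livers (1.10, adjusted p = 0.0117), where the call ended without chow liver 2 (adjusted p = 0.0546).

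The PAR bZIP relatives of Dbp fell with it in DT against saline livers: Tef by the test at -0.92 (adjusted p = 0.0201) and Hlf at -1.03 (adjusted p = 0.0404). Tef had 74.3, 108, 100 and 47.4 CPM in DT livers, against 144, 155, 144 and 179 CPM in saline livers and 89.7, 96.2 and 143 CPM in chow livers. Its call ended without saline liver 2 or 4 (adjusted p up to 0.06), and that of Hlf in 9 of the 11 refits (up to 0.115, without DT liver 4). Nfil3, which competes with them for the D-box, had 21.3, 13.2, 12.6 and 38.9 CPM in DT livers, against 14.8, 17.0, 8.80 and 14.6 CPM in saline livers and 43.5, 37.7 and 33.4 CPM in chow livers. It fell in saline against chow livers (-1.47, adjusted p = 0.0332), a call kept in 4 of the 11 refits (up to 0.13, without chow liver 1). Csnk1d, the other PER kinase, was called higher in DT against saline livers at 0.30 (adjusted p = 0.0486), in 1 of the 11 refits (up to 0.141, without saline liver 2), and was at -0.02 after the GC correction.

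Of 12 output genes of the liver clock, 0 rose and 4 fell in DT against saline livers (median log2 fold change -0.76). Saline against chow livers gave 1 that rose and 1 that fell (median 0.36), and DT against chow livers 1 that rose and 2 that fell (median -0.50). The shares called were 33.3%, 16.7% and 25%, against 21.9%, 5.58% and 23.0% of all tested genes. Wee1, a cell-cycle kinase under E-box control, had 5.67, 4.29, 4.86 and 4.11 CPM in DT livers, against 10.5, 14.0, 16.8 and 19.4 CPM in saline livers and 1.52, 1.86 and 3.69 CPM in chow livers. The 3 groups did not overlap at all. Wee1 fell in DT against saline livers (-1.68, adjusted p = 0.00563) and rose in saline against chow livers (2.68, adjusted p = 0.00125), both in all 11 refits, and rose in DT against chow livers (1.00, adjusted p = 0.0347) in 5 of 11 (up to 0.127, without chow liver 1).

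Alas1, the rate-limiting enzyme of heme synthesis, had 241, 272, 294 and 286 CPM in DT livers, against 648, 482, 849 and 1254 CPM in saline livers and 321, 344 and 642 CPM in chow livers. It fell in DT against saline livers in all 11 refits (-1.56, adjusted p = 0.00782), and DT and saline livers did not overlap. Nampt, the NAD salvage enzyme, was at -0.63 (adjusted p = 0.0242, ending without saline liver 2 or 4, up to 0.0632), and Gys2, liver glycogen synthase, at -0.90 (adjusted p = 0.0194, or 0.0537 without saline liver 4). Insig2, which holds back sterol synthesis, fell in saline (-0.92, adjusted p = 0.0329) and DT livers (-0.73, adjusted p = 0.0346) against chow livers, in 5 and 3 of the 11 refits (up to 0.133 and 0.115, both without chow liver 2). Nr1i3, the xenobiotic receptor CAR, fell in DT against chow livers (-1.40, adjusted p = 0.0435), in 1 of the 11 refits (up to 0.117, without DT liver 3), and was -2.23 without DT liver 2. Nr1i3 shares 3304 exon bases with Tomm40l on the opposite strand, so the limit on shared reads given for Dbp applies here too. Over all livers Tomm40l had 6303 counts and Nr1i3 141086. Usp2, an E-box target, was called in no comparison, at 12, 41.2, 58.9 and 32.9 CPM in DT livers, 37.0, 37.6, 72.6 and 68.1 CPM in saline livers and 5.72, 13.5 and 67.6 CPM in chow livers.

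Genes that answer to cues which also set the liver clock were described by lists for body temperature, glucocorticoids and feeding. Of 10 temperature and heat-shock genes, the cold-inducible Cirbp and Rbm3 rose in DT against saline livers and fell in saline against chow livers, and 0 were called in DT against chow livers. The 2 called are 20% of the list, near the background of 21.9% for DT against saline and above the 5.58% for saline against chow livers, and 8 of the 10 were called in neither. The list's median log2 fold change was -0.12 for DT against saline, 0.35 for saline against chow and 0.01 for DT against chow livers. Cirbp had 30.1, 22.1, 22.2 and 26.6 CPM in DT livers, against 18.6, 17.0, 9.09 and 13.4 CPM in saline livers and 37.2, 30.6 and 25.9 CPM in chow livers. The saline livers were below all others. Cirbp had a log2 fold change of 0.80 for DT against saline (adjusted p = 0.0208) and -1.11 for saline against chow livers (adjusted p = 0.0161). The calls ended without DT liver 4 or saline liver 4 (up to 0.0621) and without chow liver 1 or 2 (up to 0.0869). After GC correction the first was 0.30 and not called. Rbm3 had 0.41 and -0.64 in these comparisons (adjusted p = 0.0239 and 0.0106), ending without DT liver 3 or saline liver 2, 3 or 4 (up to 0.0728) and without chow liver 1 or 2 (up to 0.0598). Neither gene was called between DT and chow livers.

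Of 10 glucocorticoid-induced genes, 2 rose in DT against saline livers (Fkbp5 and Sgk1), 2 fell in saline against chow livers (Fkbp5 and Tat), and 1 fell in DT against chow livers (Fkbp5), with medians of 0.67, -0.56 and 0.01 in these comparisons. The shares called, 20%, 20% and 10%, stand against 21.9%, 5.58% and 23.0% of all tested genes, so those of DT against saline and DT against chow livers were not above the background. Fkbp5 had 40.9, 69.6, 87.2 and 115 CPM in DT livers, against 30.9, 21.2, 32.5 and 23.2 CPM in saline livers and 110, 114 and 326 CPM in chow livers. The saline livers were below all others. Its log2 fold change was 1.54 for DT against saline (adjusted p = 0.0177), ending without DT liver 4 or saline liver 2 or 4 (up to 0.0578). It was -2.77 for saline against chow (adjusted p = 0.00413, in all 11 refits) and -1.23 for DT against chow livers (adjusted p = 0.0461, in 3 of 11). The last was -0.52 without chow liver 3 (adjusted p = 0.304). The calls of Sgk1 (1.21, adjusted p = 0.0203) and Tat (-1.61, adjusted p = 0.0258) held in 6 and 5 of the 11 refits, with adjusted p up to 0.065 without DT liver 4 and 0.115 without chow liver 3. Per1, itself induced by glucocorticoids, was not called in any comparison.

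Of 11 measured fasting and feeding genes, 2 rose and 1 fell in DT against saline livers, 1 rose and 5 fell in saline against chow livers, and 1 rose and 4 fell in DT against chow livers, with medians of 0.29, -1.15 and -0.64 in these comparisons. The shares called were 27.3%, 54.5% and 45.5%, against 21.9%, 5.58% and 23.0% of all tested genes. Igfbp1, a fasting-induced binding protein, had 244, 26.5, 165 and 153 CPM in DT livers, against 27.3, 27.8, 30.1 and 25.0 CPM in saline livers and 121, 344 and 221 CPM in chow livers. DT liver 2 was at the level of the saline livers. Igfbp1 rose in DT against saline (2.42, adjusted p = 0.0109) and fell in saline against chow livers (-3.05, adjusted p = 0.00958), both in all 11 refits. Pdk4, which spares glucose in fasting, rose in DT against saline livers (1.95, adjusted p = 0.021) and fell in saline against chow livers (-2.15, adjusted p = 0.0396). These calls held in 7 and 2 of the 11 refits, with adjusted p up to 0.0719 without DT liver 4 and 0.204 without chow liver 1. Cpt1a, the entry enzyme of mitochondrial fatty acid oxidation and also induced in fasting, went the other way: it fell in DT against saline livers (-0.71, adjusted p = 0.0403, in 5 of the 11 refits, up to 0.118 without saline liver 4) and against chow livers (-1.04, adjusted p = 0.0111, in all 11). Along with Cpt1a, the genes G6pc, Pck1 and Angptl4 fell in DT against chow livers. G6pc was at 226 to 266 CPM in DT, 99.2 to 242 CPM in saline and 526 to 710 CPM in chow livers. Pck1 was at 2169 to 3562, 1499 to 3108 and 4478 to 6297 CPM in these groups, and Angptl4 at 86.0 to 231, 75.4 to 176 and 271 to 324 CPM. Srebf1, the driver of lipid synthesis after feeding, rose in saline (3.09, adjusted p = 0.00381) and DT livers (2.35, adjusted p = 0.00568) against chow livers. The part of temperature, hormones or feeding in the clock genes' values was not tested.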

How the data were processed

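Whole-liver RNA of 11 mice was sequenced. The tools were FastQC for read quality, STAR for alignment and featureCounts for counting, with GRCm39 as the build, per the submitters' processing notes. The deposited values are the authors' raw counts per gene. Tool versions, the strand setting and how read mates were counted are not given in the sources used here. The extraction text of the labels describes sorted CD45-positive cells for single-cell work, while the sample labels name whole liver tissue. Totals were 43995217 to 58089531 counts per liver, and 3 counts correspond to 0.0398 to 0.0773 CPM, for counting error only. Between 76.6% and 81.5% of counts from 1 to 20 were even, as counting both mates would give, so halved counts were also tried.

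Of 28842 genes with any count, filterByExpr kept 17038. The test was edgeR's quasi-likelihood test (edgeR 4.0.16, limma 3.58.1, R 4.3.3) with TMM factors, robust estimates and 1 mean per group over all 11 livers, two-sided, with Benjamini-Hochberg adjustment in each comparison at 0.05. The biological coefficient of variation was 30.1%. Log2 CPM used a prior count of 2, and the error of a fold change is its size divided by the root of F. No libraries were copies of each other. Promoters came from a RefSeq table on GRCm38.p6, GC content and overlaps from an annotation of that earlier build matched by identifier.

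The members and gene lists were chosen with earlier results of these data known. Genes named were the 10 members, in each list up to 4 genes of smallest p and all that were called where 5 or fewer were, and the 5 genes most like Arntl and the 5 most like Dbp. Not all are described, and 1 gene is not reported here. Thra and Sphk2 are named because they overlap members, and Tomm40l because it overlaps Nr1i3. Usp2 and Clec4f were chosen after their values were seen. Alternatives were RLE and upper quartile factors, total counts, no filter, a filter of 1 CPM in 3 livers, DESeq2 1.42.0, limma-voom, only the compared groups, a replicate block, halved counts and each liver left out. GC correction (loess, span 0.3) and leaving out DT livers 1 and 2 were added after the data were seen.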

Additional observations from a re-analysis of the deposited data

Results flagged for a closer look

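Within the groups of 4 livers, 14 of 122 sets of values held 1 liver set apart from the other 3 by most of the group's range. The cutoff corresponds to about 1 in 20 for separate sets of normally distributed values. These sets share livers and genes, and genes of the lists were picked for small p, so the count cannot be compared with that rate. Among the members, DT liver 1 had 16.0 CPM of Clock (43.8 to 46.1 CPM in the other 3), and DT liver 4 had 16.8 CPM of Npas2 (4.26 to 6.36 CPM) and 15.2 CPM of Cry1 (7.54 to 8.28 CPM). In saline liver 1 the log2 ratio of Nr1d1 to Arntl was 4.32 (5.58 to 5.80 in the other 3).

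In DT liver 2, 4 genes stood apart toward or beyond the saline level: Hlf with 72.0 CPM (22.5 to 30.7 CPM in the other DT livers), Csnk1e with 8.07 CPM (16.6 to 17.5 CPM), Nr1i3 with 354 CPM (75.2 to 97.0 CPM) and Sgk1 with 21.1 CPM (51.5 to 55.2 CPM). DT liver 1 had 80.6 CPM of Csnk1d (70.8 to 71.6 CPM).

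In saline liver 3, Cry2 was at 31.7 CPM (41.9 to 43.3 CPM in the other saline livers), Lpin1 at 121 CPM (23.7 to 28.1 CPM), Zbtb16 at 34.8 CPM (6.54 to 11.1 CPM) and G6pc at 99.2 CPM (219 to 242 CPM). Saline liver 4 had 384 CPM of Gys2 (216 to 221 CPM).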

How the results depend on the processing

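Over the alternatives, 569 of the members' fold changes kept direction and side of the threshold, 73 were no longer called, 16 became called and 32 turned direction. For DT against saline livers the count of 6 called genes was 5 or 6 under every alternative other than leaving out 1 liver (3 to 6), but the genes changed. Over the alternatives that gave 5 or 6, the share of all tested genes called ran from 10.4% to 45.2%. No filter lost Dbp, only the compared groups lost Cry1, GC correction had Nr1d1 in place of Cry1, and leaving out DT livers 1 and 2 had Nr1d1 in place of Dbp. For saline against chow livers the 5 became 2 with no filter, 1 by limma-voom and 3 after GC correction. Of all tested genes those settings called 2.65%, 4.18% and 4.92%. By DESeq2 and with only the compared groups Per3 joined the 5 (10.6% and 20.1% of all tested genes). With total counts Per3 took the place of Cry1 (5.19%). Without DT livers 1 and 2 Per3 was called and Per2 and Dbp were not (18.9%). Without 1 liver the count was 0 to 5. For DT against chow livers the 1 became 0 with no filter, by limma-voom and with only the compared groups. Those settings called 11.1%, 16.4% and 12.5% of all tested genes. The 1 became 2 with total counts (38.4%), by DESeq2 (28.4%), after GC correction (33.6%) and without DT livers 1 and 2 (44.8%). It was 0 to 1 without 1 liver.

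Turned directions, none of them called, were in the log2 fold changes of DT against chow livers unless stated. With upper quartile factors (median of all genes 0.086 for DT against chow and 0.11 for DT against saline livers) Arntl was 0.064, Nr1d1 0.070 and Nr1d2 0.00966. With total counts, where the median of all genes is 0.36 for DT against saline, 0.13 for saline against chow and 0.44 for DT against chow livers, Arntl was 0.46, Cry1 0.37, Nr1d1 0.38 and Nr1d2 0.36, and Clock in saline against chow livers 6.22e-05. By limma-voom Per3 was -0.047, and Per1 in saline against chow livers 0.030. After GC correction (medians -0.16, -0.02 and -0.22 for these comparisons) Per1 was -0.079 and Per3 -0.16. Without DT livers 1 and 2 Arntl was 0.14, Per3 -0.36 and Cry1 0.11. Without 1 liver Arntl ran from -0.41 to 0.23, Per1 from -0.057 to 0.85, Per3 from -0.086 to 0.42, Cry1 from -0.39 to 0.013, Nr1d1 from -0.27 to 0.25 and Nr1d2 from -0.23 to 0.075, and Per1 in saline against chow livers from -0.66 to 0.25. The causes were not tested.

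Replicate numbers do not pair the livers: same-numbered livers' deviations correlated at -0.16 to 0.18. With the number as a block, 6 genes were called for DT against saline (Nr1d1 in place of Cry1), 3 for saline against chow and 1 for DT against chow livers (Per2 in place of Npas2), and Nr1d1 turned to 0.076 in the last. The block called 16.7%, 3.28% and 13% of all tested genes in these comparisons. Counts per liver were deep, and precision was limited by the 3 or 4 livers in a group.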
